A study of Homo sapiens with 6 samples.

Results

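Ribosome biogenesis was examined through 44 genes, chosen by function, that encode nucleolar rRNA processing factors, proteins of the box C/D and box H/ACA particles and factors of RNA polymerase I (Pol I). The choice was made with earlier results of these data known. All 44 were among the 19792 genes listed for BT-549 cells. The BT-549 line was established from a triple-negative breast cancer, and its cells had been given a tetracycline-inducible shRNA against WDR5 from a vector with a puromycin marker. WDR5 is a subunit of the COMPASS histone methyltransferases. The study cultured 3 samples with 0.1% DMSO as vehicle and 3 with 500 ng/ml doxycycline (DOX) for 7 days, in medium with serum and insulin, and compared the 2 groups. All 6 libraries came from cells with the same shRNA, so that effects of DOX itself and of WDR5 silencing cannot be told apart by the design.

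The value given for each gene is the authors' mean normalized count, that is, the count divided by a size factor of its library and averaged over all 6 libraries. The 6 libraries are not analysed singly here. A level below is therefore that of the vehicle and DOX cultures combined, without a replicate error, and no difference between the groups was tested. The depth of each library is unknown. The mean normalized counts of all genes sum to 26551206, and 13548 genes reached a mean of 10 (genes at 10 or more below). The median of these genes was 677. As a check of the cell line, VIM (vimentin, 47782 mean normalized counts), FN1 (fibronectin, 30461) and SPARC (19657) were high, and the 6 mesenchymal genes examined all lay at 4093 or above. ESR1 and PGR, which encode the oestrogen and progesterone receptors, were at 0.790 and 0.801, and EPCAM was at 1.30. The other 5 of the 8 luminal and receptor genes examined were higher, with KRT8 at 57.3, CDH1 at 59.6, GATA3 at 362, KRT18 at 435 and ERBB2 at 1221. Of the endothelial genes PECAM1, CDH5 and VWF, the highest mean was 2.86, and PTPRC, a gene of blood cells, stood at 44.7. WDR5 itself was at 1143, a mean over the vehicle and DOX cultures that gives no check of the labels.

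Ribosomes are built in the nucleolus. Pol I transcribes ribosomal DNA into a long precursor, which small nucleolar RNAs guide for modification and which a large set of helicases, scaffolds, nucleases and assembly factors cuts and folds into the rRNAs of the small and the large subunit. The box C/D particles methylate riboses of rRNA and the box H/ACA particles convert uridines to pseudouridine. The pathway is known for its high activity in growing tumour cells and for its control by MYC, which binds the DNA element CACGTG, the canonical E-box.

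Among 9 motifs searched in the promoters, the E-box was the one whose share differed most, in percentage points, from that of other genes. Promoter windows from RefSeq on GRCh38.p14, from 250 bases before to 50 bases after the first listed start of each gene, were found for 37 of the 44 genes. The other 7 genes were TCOF1, NOP58, RRS1, BOP1, URB2, NOLC1 and RRP12. CACGTG reads the same on both strands, and it lay in 13 of the 37 windows (35.1%). Over the 10149 windows of genes at 10 or more the share was 10.2%, and over all 27305 windows it was 7.43%. The 30 bases around the E-box are shown for 5 genes to compare its flanks and its place, with the E-box in capitals.

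FBL: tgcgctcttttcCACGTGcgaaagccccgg

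NOP14: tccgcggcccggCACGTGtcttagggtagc

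WDR43: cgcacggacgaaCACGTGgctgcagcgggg

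RRP9: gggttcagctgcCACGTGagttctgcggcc

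MRTO4: cgtcttccgccgCACGTGgattcagcgcga

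These windows lie at chr19:39846356-39846385 (FBL, minus strand), chr4:2963374-2963403 (NOP14, minus strand), chr2:28894658-28894687 (WDR43, plus strand), chr3:51941892-51941921 (RRP9, minus strand) and chr1:19251807-19251836 (MRTO4, plus strand). Counted from the start as base 0, the E-box began at base 6 in FBL, 15 in NOP14, 3 in WDR43 and 14 in MRTO4, and in RRP9 it spanned the start, from base -5 to 0.

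The E-boxes of the set lay close to the start. Of the 14 E-boxes in the 13 windows, 8 began at or after the start, and 12 began at base -15 or later. Of the 1163 E-boxes in windows of genes at 10 or more, 18.2% began at base -15 or later, a limit chosen after the positions were seen. In the 150 bases nearest the start (100 before and 50 after), 12 of 37 genes (32.4%) held an E-box, against 6.09% of genes at 10 or more. Within the 250 bases before the start alone, 4 of 37 genes (10.8%) held one, against 8.95%. The share thus stood apart from that of other genes where bases after or across the start were included. These are counts of letters with no test, and a match does not show binding.

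**Figure D1:**
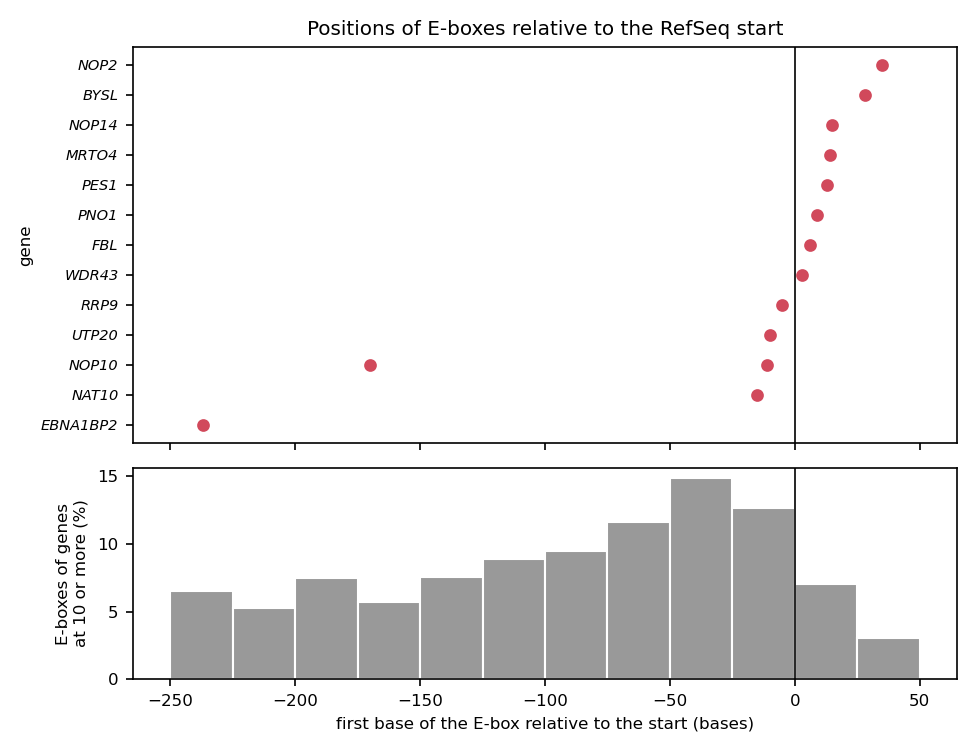
Positions of E-boxes in the promoter windows. The upper panel gives 1 row per gene and 1 point per E-box, at the distance of its first base from the RefSeq start (x axis, bases). The lower panel gives the share of the 1163 E-boxes of genes at 10 or more in bins of 25 bases. The points of 12 E-boxes lie at base -15 or later, whereas the highest bin of the other genes, 14.9%, begins at base -50.

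NOP10, which encodes the smallest protein of the box H/ACA particle, was the single gene of the set with 2 E-boxes in its window. The 250 bases before its start, chr15:34343137-34343386 on the minus strand of GRCh38.p14, are printed because both sites can be seen in them, at bases -170 and -11.

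NOP10: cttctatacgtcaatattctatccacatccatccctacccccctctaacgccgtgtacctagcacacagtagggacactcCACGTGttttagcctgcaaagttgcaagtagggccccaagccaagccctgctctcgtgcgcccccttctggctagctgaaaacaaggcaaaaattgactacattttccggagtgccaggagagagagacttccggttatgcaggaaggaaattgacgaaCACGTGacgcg

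By role, the E-box genes were uneven. Of the 10 small subunit factors with a window, 7 held it: NOP14, UTP20, WDR43, RRP9, NAT10, BYSL and PNO1. Of the 11 large subunit factors with a window, NOP2, PES1, MRTO4 and EBNA1BP2 held it, the last at base -237. FBL was 1 of 2 box C/D genes and NOP10 1 of 4 box H/ACA genes. None of the 6 Pol I genes and none of the 4 genes of nucleolar scaffolds and helicases held CACGTG in this window, which says only that these letters are not there. With any listed start counted, an alternative chosen after seeing the data, DDX21 and LYAR held it, so that the scaffolds and helicases stood at 2 of 4, and with GAR1 and GNL3 the box H/ACA genes stood at 2 of 4 and the large subunit factors at 5 of 11. The median mean normalized count was 2295 for the 13 genes with the E-box and 2298 for the 24 without, and the range of the former (647 to 4733) lay within that of the latter (79.6 to 39193). As a further list of the pathway, 88 other ribosome biogenesis genes had windows, and 24 of them (27.3%) held the E-box. The share was 4.84% over 62 cytosolic ribosomal protein genes and 7.35% over 68 mitochondrial ribosomal protein genes.

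The other motifs were searched on both strands, and no motif is contained in another. CCGGAAG, the core of ETS factor sites, lay in 12 of 37 windows (32.4%), against 19.2% of genes at 10 or more. FBL, NOP10 and RRP9 held both the ETS core and the E-box. GGGCGG, the GC box bound by SP1, was as frequent as in the background (70.3% against 70.4%). CCAAT lay in 29.7% against 36.8%, and TATAAA lay in the window of 1 gene, UTP20, against 5.56%. The CRE letters TGACGTCA were found in DDX10 alone, against 3.34%. GCGCATGCG (NRF1 core) was held by DDX10, DKC1 and NOB1, AAGATGGCG (YY1 core) by BRIX1, NIP7 and POLR1C, and CTCGCGAG by NOP14, NPM1 and POLR1B. The backgrounds of these 3 motifs were 3.72%, 4.07% and 2.01%, and with 3 of 37 genes each they rest on few matches. All 37 windows had a ratio of observed to expected CpG above 0.6, which is only part of the usual definition of a CpG island. The share was 83.3% for windows of genes at 10 or more. The median GC content of the 37 windows was 63.7%, against 65.3%, and the lowest were WDR12 (43.7%), POLR1A (44.7%) and PES1 (49.7%).

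Turning to expression, ribosome biogenesis genes were abundant in these cells. All 44 reached a mean of 10, and 42 (95.5%) lay above the median gene at 10 or more. The median of the 44 was 2362 mean normalized counts, at the 79.8 percentile of genes at 10 or more. Of the 44 genes, 33 lay between 1000 and 4000, and the share of other genes in that band was not counted. The quartiles of the 44 were 1586 and 3578, against 159 and 1913 for genes at 10 or more. At the upper end, 9 genes stood in the highest 10% of genes at 10 or more. At the lower end, RRP9 at 647 and PPAN at 79.6 were the 2 genes below the median gene. The gene next above it was POLR1C at 1065.

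**Figure D2:**
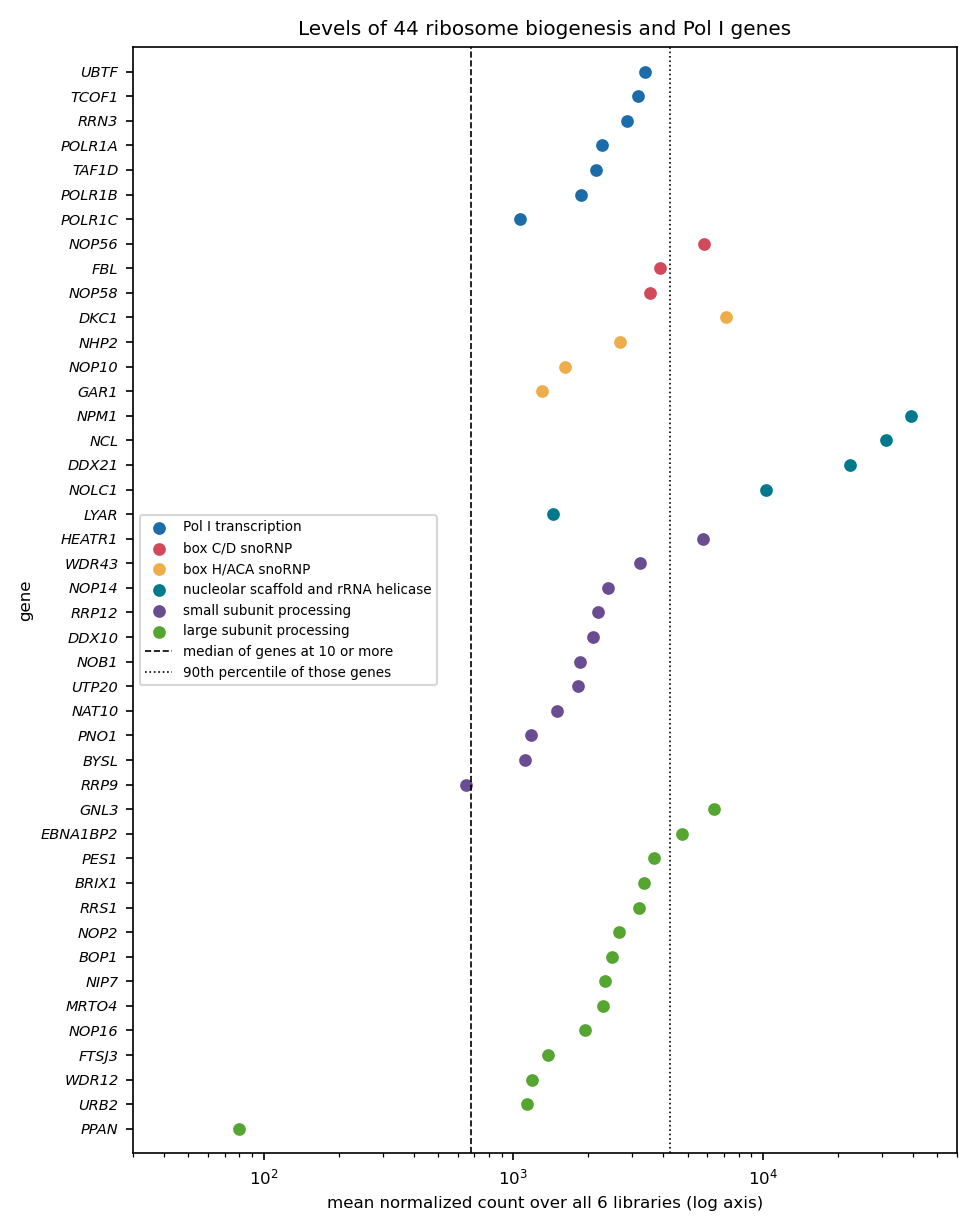
Mean normalized count of each of the 44 genes (x axis, log scale), 1 point per gene, coloured and grouped by role. The dashed line is the median (677) and the dotted line the 90th percentile (4264) of genes at 10 or more. NPM1, NCL, DDX21 and NOLC1 stand far to the right, and PPAN stands alone at the left.

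The scaffolds and helicases of the nucleolus held the highest levels. NPM1 (nucleophosmin, a histone and ribosome chaperone of the granular nucleolus, on chromosome 5 from 171387116 to 171411810 of GRCh38) was at 39193 mean normalized counts, above 99.7% of genes at 10 or more. NCL (nucleolin, which binds nascent pre-rRNA) was at 31102, and DDX21 (an RNA helicase of Pol I and II transcription) at 22314. NOLC1 (a phosphoprotein that chaperones snoRNPs) was at 10260. Together these 4 genes held 49.6% of the summed counts of the 44. LYAR, a nucleolar zinc finger protein of the same group, was much lower at 1442, and per kb of transcript it was at 928 against 2756 for NOLC1. NPM1 has 49 pseudogenes by symbol in GENCODE 44, none with a row in the table, and how the authors' counting treated reads that match several copies is not given in the sources used here.

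The Pol I genes all lay above the median gene in count, and their order depended on the scale. UBTF, the HMG box factor that bends the rDNA promoter, was at 3372 mean normalized counts, and TCOF1 (treacle, which recruits Pol I factors in the nucleolus) at 3162. RRN3, which links the polymerase to its promoter factor, was at 2868, and 2 of its 3 pseudogenes by symbol had a row, with a summed level of 61.1. RRN3P2, listed as a lncRNA in GENCODE 44, also had a row and is not in that sum. POLR1A, the largest catalytic subunit, was at 2262 and POLR1B, the other catalytic subunit, at 1864. TAF1D, a subunit of the promoter selectivity factor, was at 2146. POLR1C, shared with RNA polymerase III, was the lowest at 1065. The highest and the lowest of these 7 genes differed 3.17 times in count. Per kb of transcript, a scale that depends on the canonical transcript listed for each gene, they ran from 181 (POLR1A) and 248 (POLR1B) to 835 (POLR1C) and 1315 (TAF1D). This spread of 7.26 times was wider than that of the small subunit (5.37 times), box H/ACA (2.67 times) and box C/D (1.93 times) genes. It was narrower than that of the large subunit (101 times) and the scaffold and helicase (32.0 times) genes. Per coding kb the Pol I genes ran from 438 (POLR1A) to 2573 (TAF1D) and the small subunit genes from 218 (UTP20) to 1581 (WDR43). On that scale the small subunit genes had the wider spread. Of 15 further Pol I genes, including subunits shared with other polymerases, the median was 988. POLR1E was the highest of them at 3826. TAF1C was the lowest at 285, and TAF1A and TAF1B, its partners in the selectivity factor, were at 339 and 574, below TAF1D.

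Among the box C/D proteins, NOP56 was at 5828 mean normalized counts, FBL (fibrillarin, the methyltransferase) at 3859 and NOP58 at 3543. Among the box H/ACA proteins, DKC1 (dyskerin, the pseudouridine synthase) was at 7098, NHP2 at 2688, NOP10 at 1614 and GAR1 at 1311. A count grows with the length of the transcript, so levels of different genes were compared per kb of the canonical transcript of GENCODE 44. On that scale the order changed within the H/ACA particle. NHP2 was at 3446 mean normalized counts per kb, NOP10 at 3184, DKC1 at 2875 and GAR1 at 1292, so that 3 of the 4 lay close together. The highest and lowest H/ACA genes thus differed 5.41 times in count and 2.67 times per kb. With the coding length in place of the transcript length, the spread was 4.17 times and NOP10 was the highest. The box C/D proteins, with SNU13 as the fourth, spanned 2.30 times per kb, from SNU13 at 1491 to FBL at 3430.

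**Figure D3:**
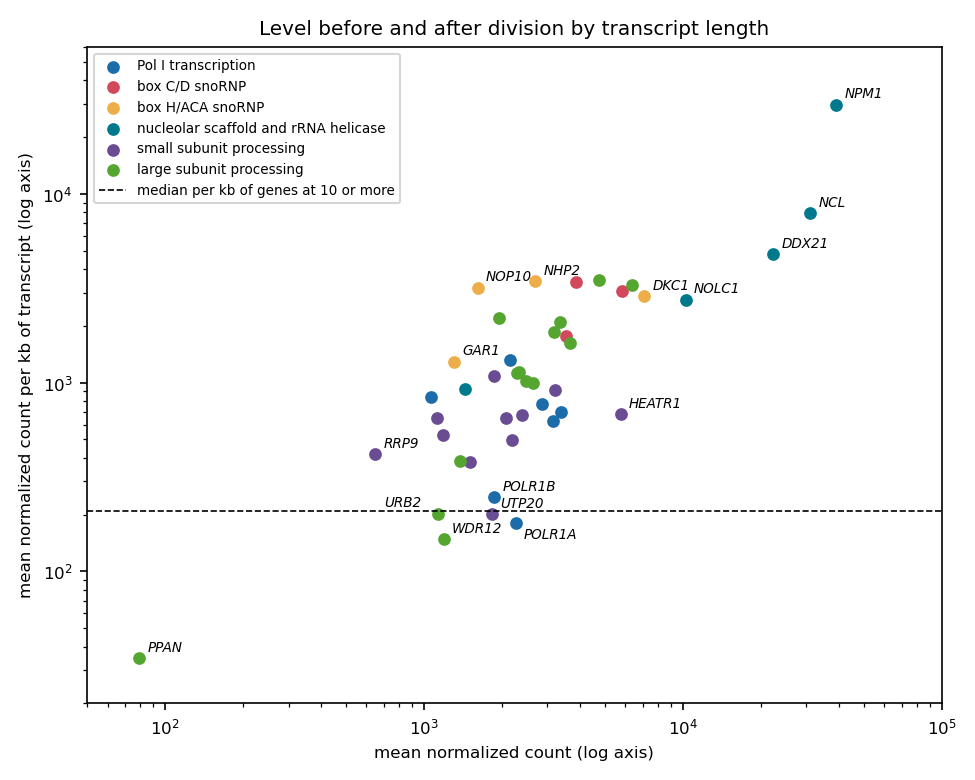
Mean normalized count (x axis, log scale) against mean normalized count per kb of transcript (y axis, log scale), 1 point per gene, coloured by role. The dashed line is the median per kb of genes at 10 or more (208). Through the division by length, the short genes NOP10 and NHP2 stand high for their count, and the long genes POLR1A, UTP20 and HEATR1 stand low for theirs.

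Per kb, 39 of the 44 genes lay above the median gene, and the median of the set (1012 mean normalized counts per kb) was at the 85.3 percentile. The 5 below it were UTP20 and URB2 (both 202), POLR1A (181), WDR12 (148) and PPAN (34.6). The canonical transcripts ran from 507 bases (NOP10) to 12480 bases (POLR1A). Transcript length and mean normalized count were nearly unrelated across the 44 genes (Spearman rho 0.07, a description over genes that share the same libraries). In rank among the 44, the division by length moved NOP10 up 25 places and GAR1 19 places, and it moved HEATR1 from place 8 to 29. NPM1, NCL and DDX21 kept the first places on both scales, at 29692, 7926 and 4784 per kb.

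The small subunit factors had the lowest median of the 6 roles, both in count (1860) and per kb of transcript (647). HEATR1 (UTP10), a long HEAT repeat protein that also acts in rDNA transcription, was the highest in count at 5757, but per kb it was at 681, below NOB1 (1084) and WDR43 (916). Its exons share 2095 bases with LGALS8 on the opposite strand (601 mean normalized counts), and whether the counting used strand is not given in the sources used here. WDR43 was at 3211, NOP14 at 2389, RRP12 at 2189 and DDX10, a helicase, at 2083. NOB1, the nuclease that makes the 3' end of 18S rRNA, was at 1860, and its partner PNO1 at 1184. Per kb of transcript PNO1 was at 528, below NOB1, whereas per coding kb PNO1 was at 1566 and NOB1 at 1505. UTP20 was at 1825, NAT10 (the acetyltransferase of 18S rRNA) at 1501, BYSL (bystin) at 1119 and RRP9, a U3 snoRNP protein, at 647. The median count of 38 further small subunit factors was 1924, from NOC4L at 326 to TSR1 at 6541.

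The large subunit factors covered a wider range. GNL3 (nucleostemin, a nucleolar GTPase) was the highest at 6378 mean normalized counts, followed by EBNA1BP2 at 4733, PES1 at 3683, BRIX1 at 3346 and RRS1 at 3186. NOP2, a methyltransferase of 28S rRNA, was at 2647, BOP1 at 2491, NIP7 at 2335, MRTO4 at 2295 and NOP16 at 1943. The lowest were FTSJ3 (1373), WDR12 (1192), URB2 (1133) and PPAN. PES1, BOP1 and WDR12 form the PeBoW complex, and they differed 3.09 times in count. Per kb of transcript the spread was 11.0 times, and per coding kb it was 2.22 times, since the canonical transcript of WDR12 has 8068 bases for a coding length of 1269. The median of the 14 was 2413, and that of 47 further large subunit factors was 2216, from WDR18 at 152 to RSL1D1 at 9247.

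PPAN, a Brix domain protein of the large subunit on chromosome 19 from 10106362 to 10112012 of GRCh38, stood apart from all the other genes. Its 79.6 mean normalized counts placed it at the 18.1 percentile of genes at 10 or more. In GENCODE 44 its exons share 1279 bases with PPAN-P2RY11, a readthrough gene of the same strand, and 48 with P2RY11. Neither partner was among the rows of the table. The part of shared reads in the level of PPAN was not tested. NOP2 also shares 2538 bases with an unnamed protein-coding gene of the same strand. In all, 5 genes share exon bases with another gene of the same strand and 12 with one of the opposite strand. The levels of these genes are uncertain to the extent that the counting dropped or split such reads.

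Several of the genes carry small nucleolar RNAs in their own introns. On the same strand and within an intron of the canonical transcript, 7 of the 44 genes (15.9%) held an annotated snoRNA, against 1.66% of 12170 protein-coding genes at 10 or more. This share was not counted for the other ribosome biogenesis genes or the ribosomal protein genes. Introns of other transcripts were not searched, so hosts may have been missed. The 7 were DKC1, GNL3, NCL, NOP56, NOP58, PPAN and WDR43, and they held 25 snoRNA genes, 19 with a box C/D name and 4 with a box H/ACA name. The other 2, unnamed entries in intron 5 of GNL3, overlap each other on the same strand, so the count of 25 may hold 1 locus listed 2 times. NOP56 and NOP58, proteins of the box C/D particle, held 4 box C/D snoRNAs each, NOP56 also held SNORA51, and DKC1, the box H/ACA enzyme, held SNORA36A in intron 8 and SNORA56 in intron 12. The hosts had a median of 5828 mean normalized counts and the other 37 genes one of 2262. The sequences of 5 snoRNAs are printed to show guests in hosts of the same kind of particle, with 1 from NCL, as given by GENCODE 44, with box C (TGATGA, within the first 20 bases) and box D (CTGA, within the last 20) in capitals for box C/D and the ACA near the 3' end in capitals for box H/ACA.

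SNORD110 (NOP56, intron 3): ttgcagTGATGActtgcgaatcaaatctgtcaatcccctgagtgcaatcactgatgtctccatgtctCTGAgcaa

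SNORD57 (NOP56, intron 10): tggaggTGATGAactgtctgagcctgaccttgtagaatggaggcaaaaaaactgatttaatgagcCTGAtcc

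SNORD11 (NOP58, intron 9): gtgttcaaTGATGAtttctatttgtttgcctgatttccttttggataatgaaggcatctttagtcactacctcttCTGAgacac

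SNORD20 (NCL, intron 11): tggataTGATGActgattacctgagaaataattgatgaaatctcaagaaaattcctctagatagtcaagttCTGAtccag

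SNORA36A (DKC1, intron 8): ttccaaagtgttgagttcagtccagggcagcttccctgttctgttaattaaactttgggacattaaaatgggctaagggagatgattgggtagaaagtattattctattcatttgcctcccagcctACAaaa

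On GRCh38 these lie at chr20:2654212-2654286 (SNORD110), chr20:2656939-2657010 (SNORD57), chr2:202293051-202293134 (SNORD11) and chrX:154768528-154768659 (SNORA36A) on the plus strand, and SNORD20 at chr2:231456444-231456523 on the minus strand. Box D was found within the last 20 bases of all 19 box C/D snoRNAs, and the strict letters of box C within the first 20 bases of 13. The snoRNAs themselves were hardly measured. Of the 25, 18 had a row, with mean normalized counts from 0.268 to 10.3, and 17 of the 18 were below 10, while their hosts stood between 79.6 and 31102. The libraries were selected for poly(A), which mature snoRNAs lack, and these values are no measure of the snoRNAs.

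**Figure D4:**
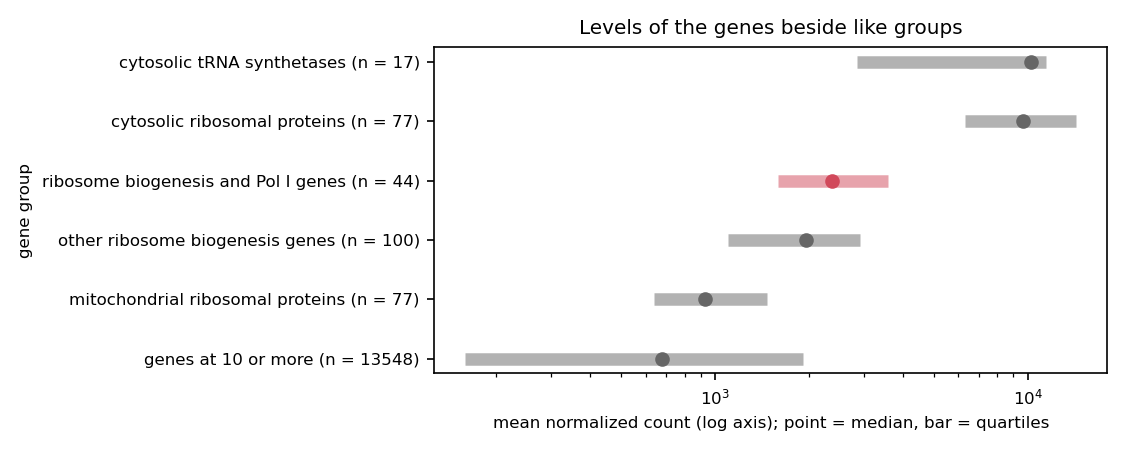
Median (point) and quartiles (bar) of the mean normalized count (x axis, log scale) for the 44 ribosome biogenesis and Pol I genes and 5 other groups. The 44 genes, with quartiles of 1586 and 3578, stand between the mitochondrial and the cytosolic ribosomal protein genes.

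Beside like groups, the 44 genes were intermediate. The 100 other ribosome biogenesis genes with a row had a median of 1955 mean normalized counts, and 86.0% of them lay above the median gene. The 77 cytosolic ribosomal protein genes, whose products these factors assemble with rRNA, had a median of 9680, from RPS10 at 18.5 to RPS6 at 33793. Their median per kb was 10269, against 1012 for the 44. The 77 mitochondrial ribosomal protein genes had a median of 930, from MRPS24 at 3.72 to MRPL15 at 3926. The lower quartile was 6294 for the cytosolic and 639 for the mitochondrial genes, far above RPS10 and MRPS24. Sharing of exon bases with other genes was not examined for these lists. The 17 cytosolic tRNA synthetase genes had a median of 10244, from CARS at 2229 to WARS at 28154. They were taken by the form of their symbols (such as CARS and WARS), which leaves out EPRS, FARSA and FARSB. Per kb of transcript, the median was 3051 for the 16 synthetase genes with a length and 731 for the mitochondrial ribosomal protein genes. It was 663 for the other ribosome biogenesis genes. The synthetase genes thus stood near the cytosolic ribosomal protein genes in count but below them per kb. In summed counts, the 44 genes held 0.782% of all normalized counts and the cytosolic ribosomal proteins 3.23%. These groups are given as descriptions, with no test between them.

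The genes are spread over 17 chromosomes, with the most, 7, on chromosome 2 (NCL, NOP58, PNO1, POLR1A, POLR1B, WDR12 and WDR43) and 5 on chromosome 5. DKC1 is the single gene on the X chromosome, from 154762742 to 154777689. RRS1 has 1 exon in its canonical transcript, whereas UTP20 has 62 and HEATR1 45.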

How the data were processed

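RNA-seq libraries (TruSeq Stranded mRNA) of 3 vehicle and 3 DOX cultures were aligned to GRCh38 with STAR and normalized with DESeq2 by the authors. The sources used here do not give the gene counter, its strand setting or any cut for rarely counted genes. The labels name a column kit for the RNA and the paper's methods name Trizol. The deposited value used is a signal, the mean normalized count over all 6 libraries, listed once per symbol. The other 5 columns of values are the authors' own comparison (log2 fold change, its standard error, Wald statistic, p-value and adjusted p-value) and were not used. No column holds a single library, so the count test planned for the difference between DOX and vehicle could not be run, and the depth of each library is unknown.

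Positions and lengths came from GENCODE 44 (canonical transcripts), promoters from RefSeq (GRCh38.p14). Of 19792 symbols, 17729 matched GENCODE directly, 593 through a synonym in RefSeq and 1470 did not match; 96.2% of the 13548 genes at 10 or more had a length. For genes with several listed starts, the first was used. Motif search and percentiles were tested on simulated data. The 44 genes and the gene lists were chosen with earlier results of these data known. Named were all 44 genes by role, and the highest and lowest gene of the other lists, with others that a result turned on chosen after their values were seen. The planned protein features were not analysed here, and 1 marker gene is not reported here. Computation used Python 3.11.15, numpy 2.4.6, pandas 2.3.3, scipy 1.17.1 and matplotlib 3.10.9.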

Additional observations from a re-analysis of the deposited data

How the results depend on the processing

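No paired analysis was possible because only a mean over all 6 libraries was used, and for the same reason the other alternatives planned for the difference between DOX and vehicle (leaving out a culture, other normalizations and filters) were not run. The share of the 44 genes above the median gene was 97.7% against all genes listed, 95.5% against genes at 50 or more and 88.6% per kb. The percentile of their median ranged from 76.5 to 86.2 over the same alternatives. The share of promoters with an E-box depended on the window. It was 35.1% in the full window, 32.4% in the 150 bases nearest the start and 10.8% when bases after the start were left out, since most of the E-boxes lie there or across the start. With any listed start of a gene counted, an alternative chosen after seeing the data, it was 45.9% (12.6% over genes at 10 or more), and DDX21, GAR1, GNL3 and LYAR were added, which took the scaffolds and helicases from 0 to 2 of 4 and left the Pol I genes at 0 of 6. The spread of the box H/ACA genes was 2.67 times per kb of transcript and 4.17 times per kb of coding length, and that of the box C/D genes 2.30 and 2.54 times. For PES1, BOP1 and WDR12, also added after seeing the data, it moved from 11.0 to 2.22 times. Without replicate values, no error can be given for any level, and small differences between genes are not resolved.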
